A study of Mus musculus with 6 samples.

Results

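The genes described here encode the transcription factor NRF2 with its repressor and partner, and the enzymes that remove reactive oxygen, quinones and other electrophiles from liver cells. The list named 37 genes, and each was read from probe sets annotated with its symbol alone, of which the one with the highest mean over the 6 arrays was kept. By this rule 34 of the 37 genes were found, among 18193 genes with a probe set of that kind, and all 34 passed the filter on dim signals (a mean log2 signal of at least 5.50). Every probe set of Prdx1 is annotated with a second gene as well, and Prdx5 and Prdx6 were not analysed here.

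Livers came from 3 ChLO mice and 3 wild-type (WT) mice, all male and 12 weeks old, and both groups ate a diet with 60% sucrose for 1 week. In ChLO mice a floxed Chrebp gene (now Mlxipl) is deleted by albumin-driven Cre, which acts in hepatocytes. Which other cells of the liver keep the gene was not tested. The labels name no strain and call the controls wild type, without saying whether those mice carried the floxed alleles or Cre. Each liver was hybridized to 1 Affymetrix array, and values are log2 signals. The question asked here is how this set of protective genes read in livers with a hepatocyte deletion of ChREBP, a factor activated by carbohydrate that drives glycolysis and fat synthesis, under a sucrose load.

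NRF2, encoded by Nfe2l2, is normally held in the cytoplasm and marked for degradation by KEAP1. Electrophiles and oxidants modify KEAP1, NRF2 then accumulates, pairs with a small MAF protein and binds antioxidant response elements in the promoters of its targets. The classical targets make and recycle glutathione, reduce thioredoxin and quinones, and break down heme. Superoxide dismutases, catalase, glutathione peroxidases and peroxiredoxins remove superoxide and peroxides directly, and many of them are abundant in the liver without any induction.

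To show what the promoters of these genes hold, the core of the antioxidant response element (TGACNNNGC) was searched on both strands between 250 bases before and 50 bases after each gene's start in RefSeq promoters of build GRCm38.p6. Of the 29 measured genes with a promoter entry, 7 (24.1%) held a match, against 14% of all 27025 genes with one. Gclc, Gsr, Hmox1, Sod3, Prdx6 and Msra have no entry in that table. The matches upstream of the start in measured members are given below, 5′ to 3′ on the strand of the gene, with the match in capitals (a match on the opposite strand reads GCNNNGTCA).
Nfe2l2 (chr2:75704865-75704913, minus strand): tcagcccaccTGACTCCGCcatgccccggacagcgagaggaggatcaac
Mafg (chr11:120633731-120633797, minus strand): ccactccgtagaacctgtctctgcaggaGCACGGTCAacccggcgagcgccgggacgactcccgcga
Gclm (chr3:122245393-122245461, plus strand): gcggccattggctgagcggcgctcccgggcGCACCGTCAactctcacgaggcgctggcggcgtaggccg
Ugdh, first match (chr5:65435936-65436004, minus strand): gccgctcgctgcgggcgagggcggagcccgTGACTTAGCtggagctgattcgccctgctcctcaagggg
Ugdh, second match (chr5:65435898-65435966, minus strand): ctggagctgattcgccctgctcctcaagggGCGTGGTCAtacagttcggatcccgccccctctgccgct
Txnrd1 (chr10:82859084-82859152, plus strand): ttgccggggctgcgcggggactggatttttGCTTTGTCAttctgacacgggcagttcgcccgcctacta
Sod1 (chr16:90220676-90220744, plus strand): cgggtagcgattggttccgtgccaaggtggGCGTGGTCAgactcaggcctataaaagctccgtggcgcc

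These stretches are shown because they set members that differ in their readings side by side. Ugdh and Txnrd1 averaged higher in ChLO than in WT by over 0.5 log2 units, Sod1 averaged lower, and Nfe2l2, Mafg and Gclm differed by less. Srxn1 had its match after the start of the gene, and Nqo1 had none within this window. A match is only a stretch of letters, and it was not tested whether NRF2 binds there.

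The arrays differed from one another in ways that touch these genes. Mlxipl read 10.34, 11.22 and 11.48 in ChLO 1, 2 and 3, against 12.61, 12.56 and 12.59 in WT 1, 2 and 3, so each ChLO liver lay below every WT liver. The sources used here do not say whether its probe set lies in the deleted exons. Array medians lay between 6.37 and 6.60. The 3′ probe set of Actb exceeded its 5′ probe set, a gap that widens as RNA degrades, by 0.84, 1.03 and 1.46 log2 units in ChLO 1, 2 and 3, against 1.13, 1.38 and 1.28 in WT 1, 2 and 3. For Gapdh the same gap was negative on every array. It was -0.25, -0.20 and -0.14 in ChLO 1, 2 and 3, against -0.31, -0.14 and -0.13 in WT 1, 2 and 3. All 5 measured hepatocyte markers, of 6 listed, averaged lower in ChLO, and their log2 summed signal ran from 17.57 to 17.91 in ChLO, against 17.94 to 18.13 in WT. All 5 measured monocyte and neutrophil markers, of 7 listed, averaged higher, with a log2 summed signal of 12.93, 12.33 and 10.96 in ChLO 1, 2 and 3, against 11.17 to 11.27 in WT. All 8 stellate cell and fibroblast markers averaged higher as well, with sums of 13.21 to 14.31 in ChLO, against 12.87 to 13.62 in WT. Of the other marker lists, 4 of 7 Kupffer cell and macrophage markers, 4 of 5 cholangiocyte markers, 4 of 6 endothelial markers, 3 of 4 lymphocyte markers and 2 of 3 measured erythroid markers averaged higher in ChLO. The part of these differences in the results below was not tested. In whole liver, fewer cells of a type and less RNA per cell cannot be told apart.

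No antioxidant gene passed the test between ChLO and WT livers. By unadjusted limma p the members that came first were Nqo1 and Gss, followed by Cbr3, Ugdh and Srxn1, all higher in ChLO. Cat, Sod1 and Prdx4 lay slightly lower in ChLO without overlap, by narrow margins. ChLO 3 and the lowest WT liver read 15.2036 and 15.2044 for Cat, 14.7704 and 14.7713 for Sod1, and 13.16 and 13.18 for Prdx4. By limma no member passed at an adjusted p of 0.05 over the 12598 genes tested, as was so for all genes (0% called), and the adjusted p of the members ran from 0.538 to 0.992. At an unadjusted p under 0.05, Nqo1 and Gss were higher, 2 of 34 members against 5.46% of all genes, and no member was lower, against 3.50% of all genes. The 3 ChLO arrays lay above all WT arrays for Nqo1 alone, against 9.04% of all genes, and below all WT arrays for Cat, Sod1 and Prdx4, against 6.19%. These few counts do not set the members apart from other genes. With quantile normalization the members below every WT array were Txnrd2 alone, with equal array medians Cat alone, and with scaling to spike-in controls none, since that scaling raised the median difference of all genes by 0.25. Nqo1 stayed above every WT array under all 3. Of the 34 members 18 averaged higher in ChLO, against 56.5% of all genes. The members' median difference, ChLO minus WT, was 0.06 on the log2 scale, and the median over all genes tested was also 0.06.

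The 95% interval lay within 1 log2 unit on either side of 0, a 2-fold difference, for 24 of the 34 members, against 52.5% of all genes. The widest intervals were those of Cbr3 and Srxn1, the only members with a difference over 1. The ChLO livers differed among themselves. ChLO 1 was the highest of the 6 arrays for 13 of the 34 members, against 29.5% of all genes, and ChLO 3 was the highest for 2 of them, against 20.4%. By array, the median of the members relative to the WT mean was 0.24, 0.01 and -0.07 in ChLO 1, 2 and 3, against 0.21, -0.11 and -0.05 in WT 1, 2 and 3.

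**Figure D1:**
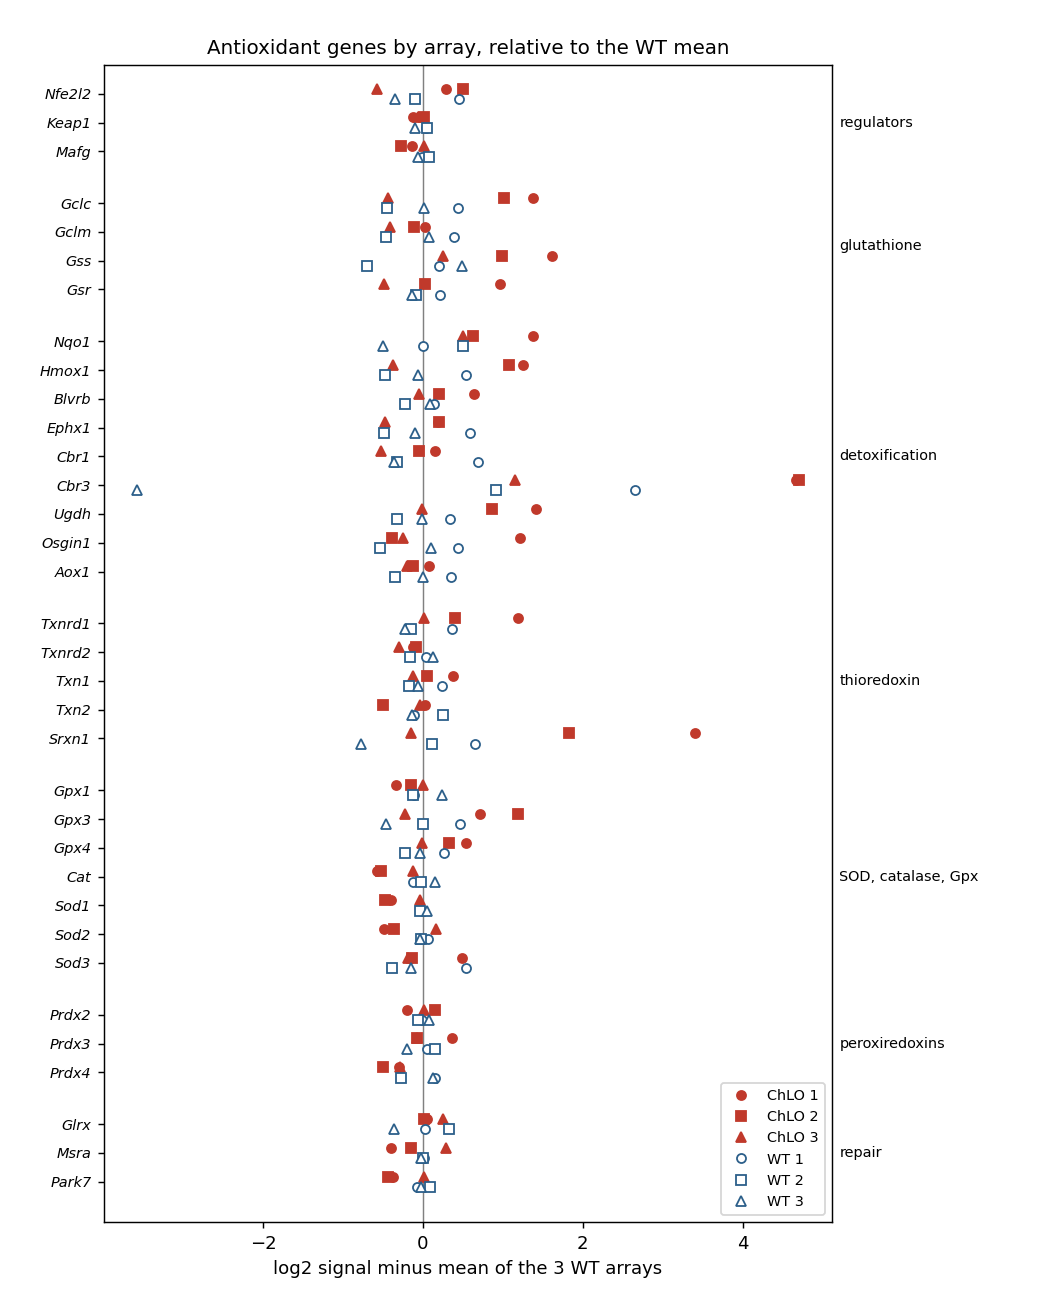
Log2 signal of each of the 34 members in each liver, relative to the mean of the 3 WT livers, by role (red filled symbols, ChLO; blue open symbols, WT; 1 point per array). Points of Srxn1, Cbr3, Gclc, Gss, Hmox1 and Ugdh lie far to the right in ChLO 1 and ChLO 2, while ChLO 3 lies among the WT points for Srxn1, Cbr3, Gclc, Gss, Hmox1 and Ugdh.

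The intervals of all 3 regulators spanned 0. Nfe2l2, which encodes NRF2, read 12.09, 12.30 and 11.23 in ChLO 1, 2 and 3, against 12.25, 11.71 and 11.45 in WT 1, 2 and 3. The groups overlapped, and the difference was 0.07 (SE 0.32, limma adjusted p = 0.957, 95% interval -0.67 to 0.81). Keap1, its repressor, was steady in both groups and read 10.04, 10.18 and 10.11 in ChLO, against 10.21, 10.22 and 10.07 in WT. Its difference was -0.06 (SE 0.16, adjusted p = 0.915), with a 95% interval of -0.42 to 0.30. Mafg, a small MAF partner, averaged 10.78 ± 0.14 in ChLO and 10.91 ± 0.07 in WT (SD, n = 3 each). A second probe set of Nfe2l2 with a mean of 7.42 differed by 0.63, with the same sign but another order of livers. ChLO 3 was the highest of the 6 livers in this second set, at 8.52, and the lowest in the first. NRF2 is controlled mainly through the stability of its protein, which these arrays do not measure.

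In glutathione synthesis, Gss and Gclc averaged higher in ChLO and Gclm did not. Gss, glutathione synthetase, which adds glycine in the last step, read 11.99, 11.37 and 10.62 in ChLO 1, 2 and 3, against 10.58, 9.68 and 10.87 in WT 1, 2 and 3. ChLO 1 and 2 lay above every WT liver, while ChLO 3 lay below WT 3. The difference was 0.95 (SE 0.41), 1.93-fold, with an unadjusted p of 0.0479 and a limma adjusted p of 0.549, and a second probe set gave 0.94. With the mean of both the unadjusted p was 0.0698.

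Glutamate-cysteine ligase, which catalyses the rate-limiting step, is built of a catalytic subunit, Gclc, and a modifier subunit, Gclm. Gclc read 13.88, 13.51 and 12.06 in ChLO, against 12.93, 12.05 and 12.51 in WT, so ChLO 1 and 2 stood above all WT livers and ChLO 3 among the lowest. Gclm read 12.75, 12.61 and 12.31 in ChLO, against 13.12, 12.26 and 12.79 in WT, and here ChLO 1 and 2 lay within the WT range. The differences were 0.65 (SE 0.46) for Gclc and -0.17 (SE 0.25) for Gclm, with limma adjusted p of 0.677 and 0.839. Gsr, glutathione reductase, which regenerates the reduced form with NADPH, read 12.27, 11.33 and 10.81 in ChLO, against 11.52, 11.22 and 11.17 in WT. Its difference was 0.17 (SE 0.34) and turned to -0.23 without ChLO 1. A second probe set, nearly as bright, differed by 0.63 and read 12.22, 11.61 and 11.04 in ChLO, against 11.24, 10.75 and 10.98 in WT. The mean of both differed by 0.40 (limma adjusted p = 0.733).

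Among the detoxifying enzymes, Nqo1 was the only member of the whole list whose ChLO livers all lay above its WT livers. Nqo1, a quinone reductase and a standard NRF2 target, read 9.33, 8.59 and 8.46 in ChLO 1, 2 and 3, against 7.96, 8.46 and 7.46 in WT 1, 2 and 3. The separation was narrow, since ChLO 3 and WT 2 both read 8.46. The difference was 0.84 (SE 0.34), 1.78-fold, with an unadjusted p of 0.0405 and a limma adjusted p of 0.538.

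Heme breakdown showed the split between ChLO livers seen for Gss and Gclc, not the separation of Nqo1. Hmox1, heme oxygenase, read 8.97, 8.80 and 7.35 in ChLO 1, 2 and 3, against 8.26, 7.24 and 7.66 in WT 1, 2 and 3, a difference of 0.65 (SE 0.47, limma adjusted p = 0.686). Blvrb, a biliverdin reductase, averaged 12.53 ± 0.35 in ChLO and 12.26 ± 0.20 in WT (SD, n = 3 each). Hmox1 is also made by macrophages, and Cd68, a macrophage marker, read 10.73, 9.78 and 8.16 in ChLO, against 8.64, 8.31 and 8.31 in WT. Clec4f, a marker of resident Kupffer cells, read 9.95, 11.03 and 10.52 in ChLO, against 10.67, 10.64 and 10.63 in WT 1, 2 and 3. Of the 7 listed markers of Kupffer cells and macrophages, 4 averaged higher in ChLO, Cd68 by the most, while Clec4f, Vsig4 and Timd4 averaged lower. The part of these cells in the Hmox1 reading was not tested.

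Cbr3, a carbonyl reductase, had the largest difference of all members and the least certain one. It read 10.28, 10.32 and 6.77 in ChLO 1, 2 and 3, against 8.27, 6.53 and 2.04 in WT 1, 2 and 3. WT 3 lay far below the filter level of 5.50, where signals of this kind vary widely. The difference was 3.51 (SE 1.59, limma adjusted p = 0.571), and it was 1.72 without WT 3. Its neighbour in function, Cbr1, differed by -0.14 (SE 0.32). Ugdh, which makes the UDP-glucuronic acid used for glucuronidation, read 13.86, 13.30 and 12.43 in ChLO, against 12.78, 12.12 and 12.43 in WT, with a difference of 0.75 (SE 0.36, limma adjusted p = 0.582). Ephx1 (microsomal epoxide hydrolase), Aox1 (aldehyde oxidase) and Osgin1 (an oxidative stress-induced growth inhibitor) differed by -0.03, -0.08 and 0.19, and their groups overlapped. Osgin1 was high in ChLO 1 alone, at 12.07 against 10.48 and 10.61 in ChLO 2 and 3.

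**Figure D2:**
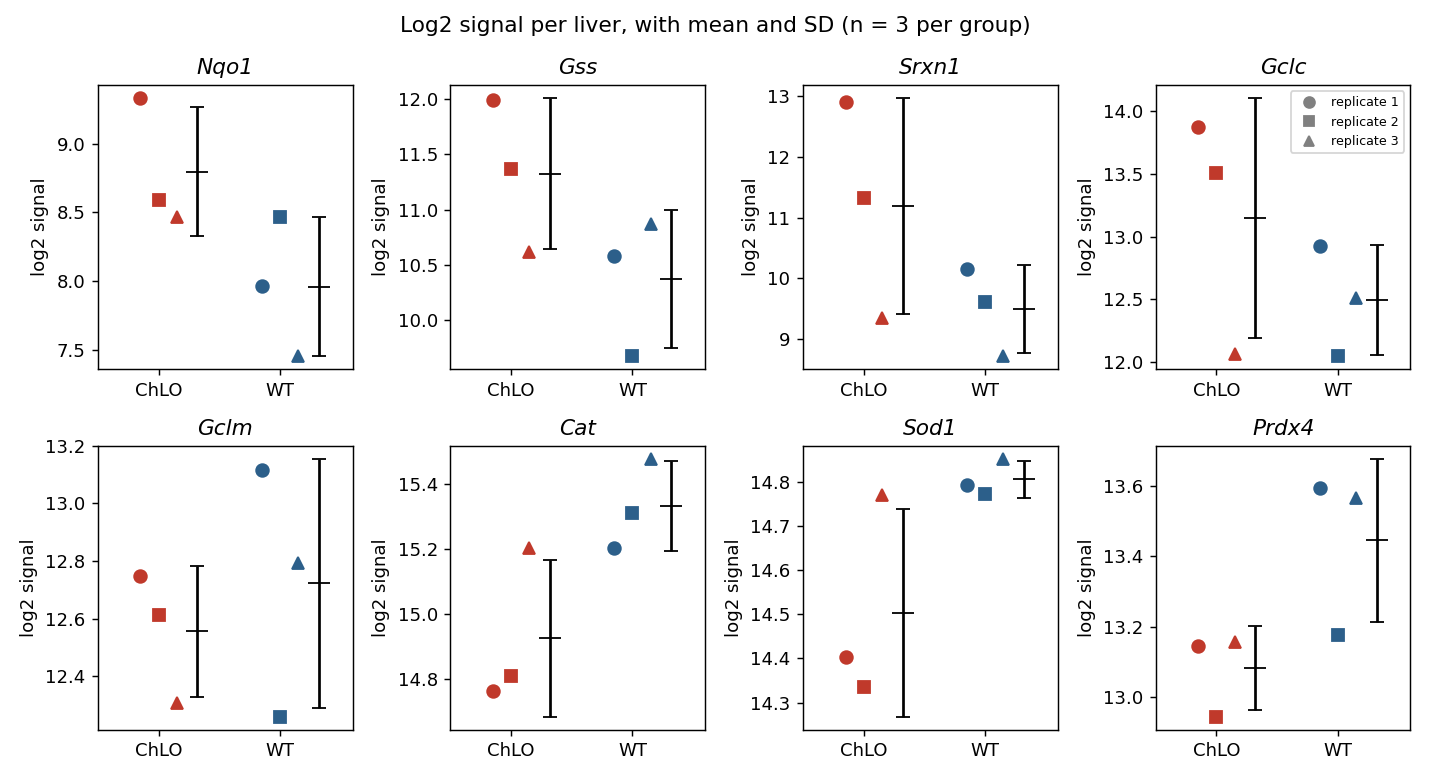
Log2 signal of 8 members in each liver (ChLO left, WT right; the symbol gives the replicate number, the bar the mean and SD, n = 3 per group; each panel has its own axis, which does not start at 0). Nqo1 lay higher in all ChLO livers, and Cat, Sod1 and Prdx4 lay lower, but in each of them ChLO 3 almost met a WT liver. Gss, Srxn1 and Gclc lay above every WT liver in ChLO 1 and 2 only, and Gclm overlapped.

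Of the thioredoxin system, Srxn1 and Txnrd1 averaged higher in ChLO, and both were highest in ChLO 1. Srxn1, sulfiredoxin, which restores overoxidized peroxiredoxins, read 12.90, 11.33 and 9.34 in ChLO 1, 2 and 3, against 10.15, 9.62 and 8.73 in WT 1, 2 and 3. ChLO 1 and 2 stood above every WT liver, whereas ChLO 3 lay between WT 2 and WT 3. The difference was 1.69 (SE 0.80), 3.23-fold, with a limma adjusted p of 0.583. Without ChLO 3 it was 2.62, with a limma adjusted p of 0.0482, which made Srxn1 the single member past the threshold in that fit, in which 2.40% of all genes passed. Over all its alternatives the adjusted p ran from 0.0482 to 0.886. All 4 probe sets of Srxn1 ranked ChLO 1 first and ChLO 2 second.

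Txnrd1, the cytosolic thioredoxin reductase, read 12.37, 11.58 and 11.20 in ChLO 1, 2 and 3, against 11.55, 11.04 and 10.96 in WT 1, 2 and 3. The difference was 0.54 (SE 0.31, limma adjusted p = 0.630) for this probe set. Its dimmer probe sets, with means of 8.42 and 7.75, gave 0.07 and -0.14, so the 3 disagree in sign. Txn1, cytosolic thioredoxin, differed by 0.10 (SE 0.20), and a far dimmer probe set, with a mean of 5.79, by 1.48. With the mean of all probe sets Txn1 differed by 0.79 (unadjusted p = 0.0446, limma adjusted p = 0.589) and its groups did not overlap. The mitochondrial pair read slightly lower in ChLO, with Txnrd2 at -0.17 (SE 0.17) and Txn2 at -0.17 (SE 0.21), though the other 2 probe sets of Txn2 had the opposite sign. All 3 other probe sets of Txnrd2 read lower too, with differences of -0.51, -0.60 and -0.15, and their mean with the first gave -0.36 (limma adjusted p = 0.625) with groups that did not overlap. With spike-in scaling Txnrd2 and Txn2 read 0.08 each.

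**Figure D3:**
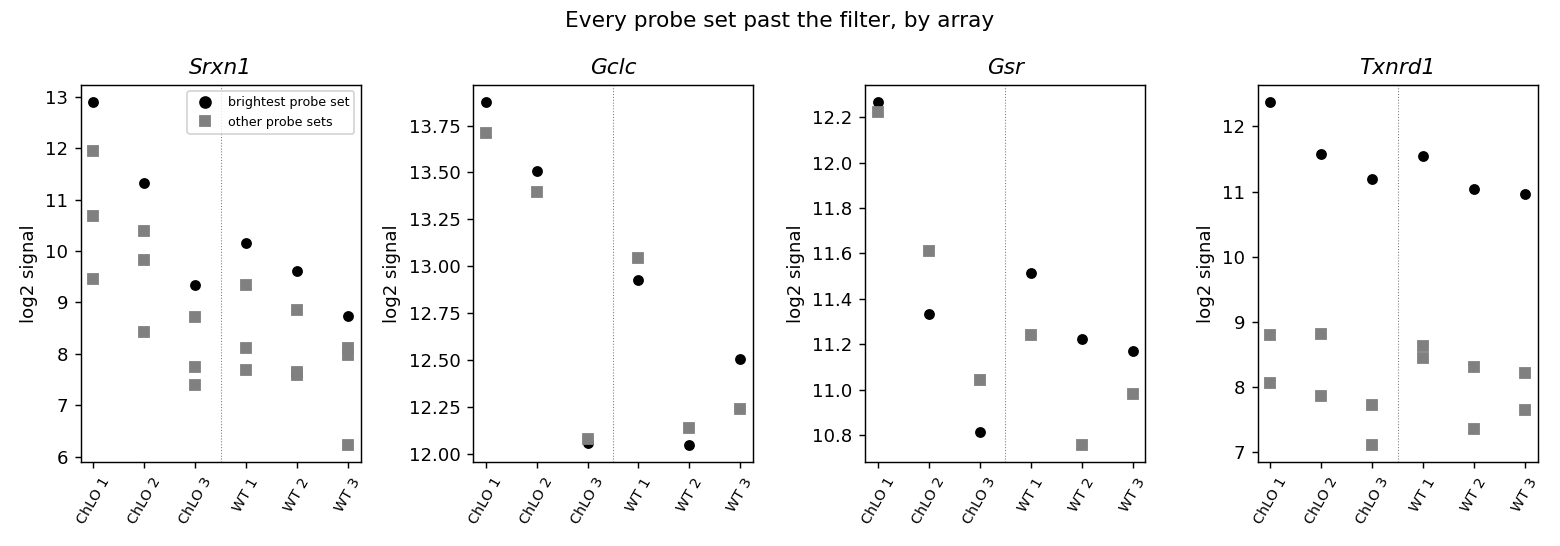
Log2 signal of every probe set past the filter for Srxn1, Gclc, Gsr and Txnrd1, by array (ChLO left of the dotted line, WT right; black circles, the probe set used; grey squares, the others). The probe sets of Srxn1 and Gclc share an order of livers with ChLO 1 and ChLO 2 on top, while the dim probe sets of Txnrd1 hardly separate the groups.

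Of the 7 superoxide dismutases, catalase and glutathione peroxidases, 4 averaged lower in ChLO and 3 averaged higher, and none had an unadjusted p under 0.05. Cat and Sod1 were the ones that did not overlap between groups. Cat, catalase, read 14.76, 14.81 and 15.20 in ChLO 1, 2 and 3, against 15.20, 15.31 and 15.48 in WT 1, 2 and 3. Sod1, the cytosolic superoxide dismutase, read 14.40, 14.33 and 14.77 in ChLO, against 14.79, 14.77 and 14.85 in WT. For both genes ChLO 3 lay at the level of the lowest WT liver, and ChLO 1 and 2 lay below all WT livers.

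The difference of Cat was -0.41 (SE 0.20, limma adjusted p = 0.587), 1.33-fold lower, and its second probe set gave -0.29. In that second set, nearly as bright, the groups overlapped, with ChLO 3 at 15.195 above WT 1 at 15.165. The difference of Sod1 was -0.30 (SE 0.18, limma adjusted p = 0.638), 1.23-fold lower. Of its 3 other probe sets past the filter, 2 shared the sign, with differences of -0.25 and -0.54. The remaining one, with a mean of 8.71, differed by 0.17, and there all ChLO livers lay above all WT livers. With spike-in scaling Cat, Sod1 and Prdx4 read -0.16, -0.05 and -0.12. Sod2, the mitochondrial dismutase, read 13.02, 13.15 and 13.68 in ChLO, against 13.57, 13.49 and 13.48 in WT, so that ChLO 3 was the highest liver of all. Its difference was -0.23 (SE 0.20) and turned to 0.02 with spike-in scaling. Of the 3 other probe sets of Sod2, 2 shared the sign. Sod3, the extracellular form, was dim in both groups (7.30 to 7.97 in ChLO, against 7.09 to 8.02 in WT).

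The glutathione peroxidases differed in sign. Gpx1, the abundant cytosolic enzyme, averaged 14.96 ± 0.17 in ChLO and 15.12 ± 0.20 in WT (SD, n = 3 each), a difference of -0.16 (SE 0.19) that was 0.09 with spike-in scaling. Gpx4, which reduces lipid hydroperoxides in membranes, averaged 13.72 ± 0.27 in ChLO and 13.44 ± 0.24 in WT (SD, n = 3 each). Gpx3, the secreted plasma form, read 8.05, 8.53 and 7.12 in ChLO 1, 2 and 3, against 7.80, 7.34 and 6.89 in WT, a difference of 0.56 (SE 0.42).

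Among the peroxiredoxins, Prdx4, the form of the endoplasmic reticulum, was below every WT liver in all ChLO livers. It read 13.15, 12.94 and 13.16 in ChLO 1, 2 and 3, against 13.59, 13.18 and 13.57 in WT 1, 2 and 3. The difference was -0.36 (SE 0.18, limma adjusted p = 0.594), with an interval of -0.78 to 0.05. Of its 3 other probe sets, 2 shared the sign, and the mean over all 4 differed by 0.01. Prdx2, which is also abundant in red blood cells, averaged 12.83 ± 0.18 in ChLO and 12.84 ± 0.07 in WT, and the mitochondrial Prdx3 averaged 12.92 ± 0.25 in ChLO and 12.85 ± 0.18 in WT (SD, n = 3 each). A dimmer probe set of Prdx2, with a mean of 8.18, differed by 1.17, and its groups overlapped.

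Catalase, Sod1, Prdx2 and Blvrb are also rich in red blood cells. Of 7 erythroid markers, 3 were measured. Alas2, the erythroid enzyme of heme synthesis, read 8.64, 9.58 and 10.44 in ChLO 1, 2 and 3, against 10.04, 10.49 and 11.15 in WT, but the other 2 went the opposite way. Hba-a1, a globin, read 4.87, 5.63 and 3.56 in ChLO 1, 2 and 3, against 1.83, 2.59 and 3.05 in WT. Slc4a1, the anion exchanger of the red cell membrane, read 5.54, 6.03 and 5.73 in ChLO, against 5.40, 3.99 and 4.68 in WT. Both lay higher in all ChLO livers than in any WT liver, at mean signals below the filter, so neither was tested. The log2 summed signal of the 3, which Alas2 dominates, ran from 8.89 to 10.50 in ChLO, against 10.10 to 11.17 in WT. The erythroid markers thus gave no common direction, and the part of red blood cells and of hepatocytes in these readings was not tested.

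Repair enzymes gave small differences of either sign. Park7, the DJ-1 protein that guards against oxidative damage, read 12.67, 12.60 and 13.05 in ChLO 1, 2 and 3, against 12.97, 13.13 and 13.02 in WT, and differed by -0.27 (SE 0.18), or by -0.02 over its second probe set. Msra, which reduces oxidized methionine, was nearly constant in WT (12.43 to 12.46), while ChLO 1, 2 and 3 read 12.05, 12.30 and 12.75 and lay on both sides of it. Glrx, glutaredoxin, differed by 0.10 (SE 0.21), or by -0.06 over its second probe set.

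**Figure D4:**
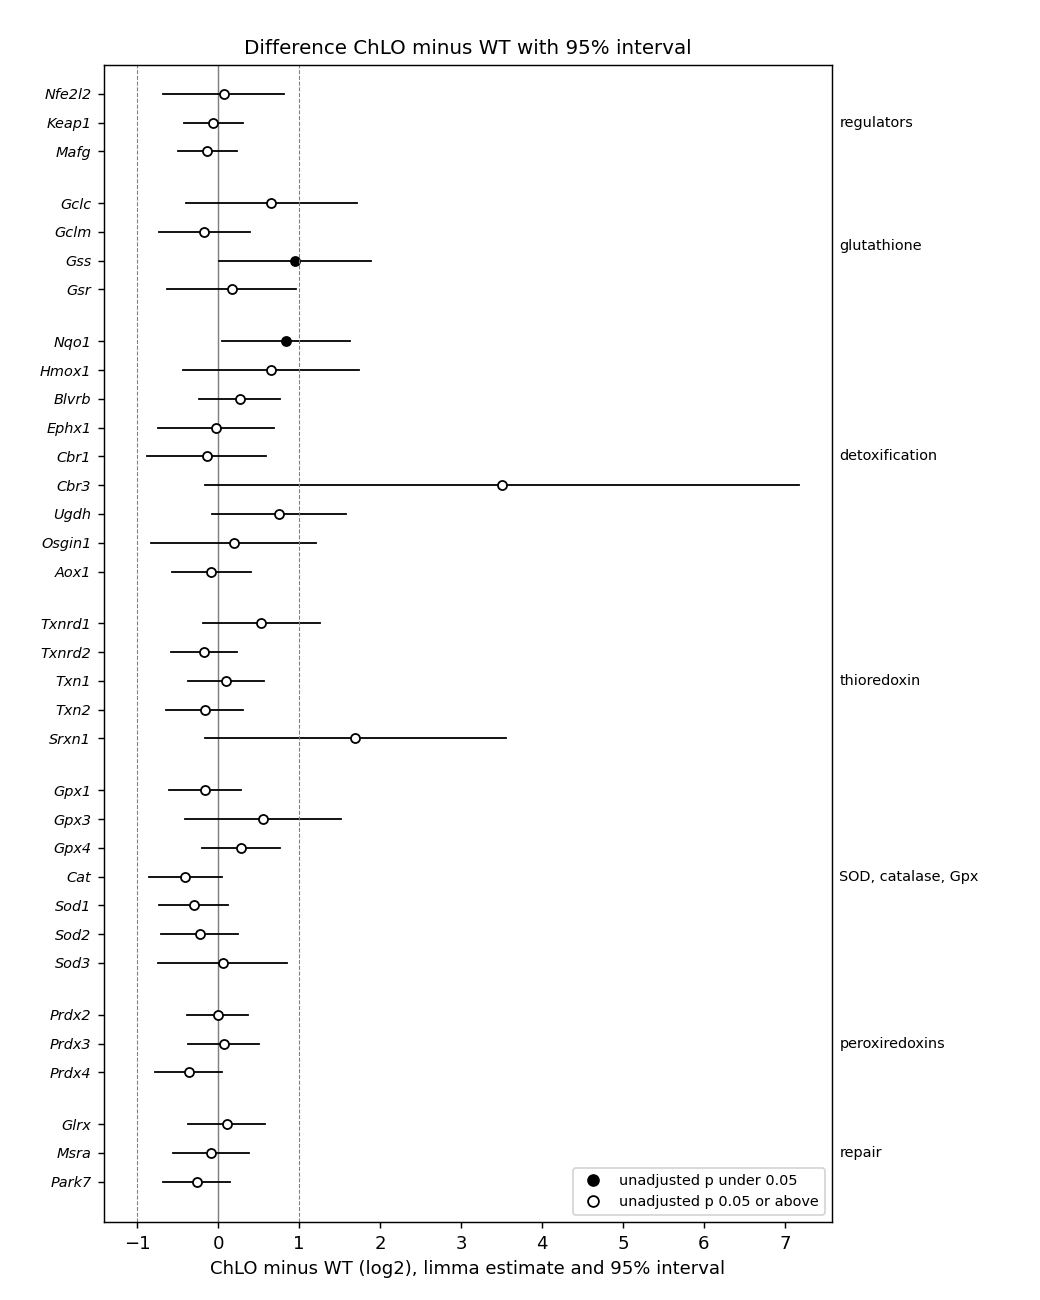
Difference ChLO minus WT of each member on the log2 scale with its 95% interval from limma (filled circles, unadjusted p under 0.05; open circles, above it; dashed lines, 2-fold in either direction). Only the intervals of Nqo1 and Gss leave out 0, and 24 of the 34 lie within the dashed lines.

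How far these readings rest on single livers was seen by leaving out each array in turn. Without ChLO 3, 9 members had an unadjusted p under 0.05 and were higher (Srxn1, Gclc, Gss, Ugdh, Hmox1, Cbr3, Nqo1, Txnrd1 and Gpx3), against 12.4% of all genes in that fit. In the same fit 4 were lower (Cat, Sod1, Sod2 and Park7), against 8.04% of all genes. Gclc then differed by 1.20 and Ugdh by 1.14, with limma adjusted p of 0.0641 and 0.0629, and Hmox1 by 1.16. Without ChLO 1, and likewise without ChLO 2, no member had an unadjusted p under 0.05 in either direction. Without WT 1 it was Cbr3 that was higher at that level, without WT 2 Nqo1 and without WT 3 Gss, while Prdx4 was lower without WT 2.

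Related genes outside the member list gave a wider view of glutathione use, NADPH supply, iron storage and export. Of 66 such genes 60 were tested, and at an unadjusted p under 0.05 there were 10 higher and 3 lower, against 5.46% and 3.50% of all genes. The list was chosen with earlier results of these data known, so these counts describe it and do not test it. None passed over all genes, the smallest limma adjusted p being 0.221. Leaving out 1 array at a time gave 6 to 14 that were higher and 1 to 11 that were lower, with both maxima in the fit without ChLO 3. The median difference of these 60 genes was 0.08.

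The highest by p were Abcc3, an export pump for glucuronides and other conjugates, and Gsta2, a glutathione transferase. Abcc3 read 12.12, 11.87 and 11.69 in ChLO 1, 2 and 3, against 11.09, 10.26 and 10.36 in WT, a difference of 1.32 (SE 0.25). Gsta2 read 13.49, 12.07 and 12.79 in ChLO, against 11.23, 10.66 and 9.91 in WT, a difference of 2.18 (SE 0.42). In both genes all ChLO livers, ChLO 3 included, lay well above all WT livers, unlike Srxn1 or Gclc. Mafk, another small MAF protein, differed by 1.19 (SE 0.36), and Trib3, a stress-induced pseudokinase, by 2.04 (SE 0.62).

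The lowest by p was Me1, malic enzyme, which supplies NADPH and is also a textbook target of ChREBP. It read 11.90, 11.23 and 9.65 in ChLO 1, 2 and 3, against 15.04, 14.96 and 12.90 in WT, a difference of -3.37 (SE 0.70, limma adjusted p = 0.246). Idh1, a cytosolic NADP-dependent isocitrate dehydrogenase, differed by -0.38 (SE 0.17), and by -0.13 with spike-in scaling. Idh2, another isocitrate dehydrogenase, went the other way, by 0.70 (SE 0.22, limma adjusted p = 0.457), with all ChLO livers above all WT livers. Glrx5, a mitochondrial glutaredoxin of iron-sulfur cluster assembly, differed by -0.46 (SE 0.16), and Chac2, which breaks down glutathione, by -0.46 (SE 0.18).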

How the data were processed

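Biotin-labelled cRNA from the total RNA of each liver went onto 1 Affymetrix array, per the labels' protocols. The authors deposited log2 signals for 45101 probe sets, and MAS5, without version or parameters, is named in the submitters' processing notes. The log2 scale was inferred from the deposited values, as was the scaling, since each array's linear signal had a mean of 500 after trimming 2% at each end. Such scaling hides a shift shared by most genes. No genome build for the arrays is given in the sources used here. Probe sets were named through the platform annotation (34945 with 1 symbol, 932 with several, 9160 with none, 64 controls), and 99.4% of the Entrez identifiers matched a mouse gene table.

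Control probe sets and those under the 40th percentile of mean signal (5.50) were left out, and the brightest probe set of each gene was kept, giving 12598 genes. ChLO and WT were compared with limma 3.58.1 in R 4.3.3 (eBayes with a trend, no block), with p-values adjusted by Benjamini-Hochberg over all genes. P-values weigh each difference against the spread between mice, moderated over all genes by eBayes, and 3 arrays a group limit the precision. The procedure was tested on simulated data. Of the same-numbered arrays, pair 1 deviated together (correlation 0.304) and pairs 2 and 3 did not (-0.166 and 0.0632), so numbers were not taken as pairs. Members and lists were chosen with earlier results of these data known. Full statistics are given for members that did not overlap or had an unadjusted p under 0.05, and for 8 classical members. Values are given for the other members, and the 4 related genes with the smallest p in each direction are named. Further genes are named as cell type markers, and Idh2 was added beside Idh1 after its values were seen. Alternatives were other normalizations (quantile, equal medians, spike-in controls), filters, variance models, probe set rules, a replicate block and leaving out each array.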

Additional observations from a re-analysis of the deposited data

How the results depend on the processing

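With 3 arrays a group, the genes that vary most between livers (Srxn1, Cbr3, Gclc, Hmox1) have wide intervals, and dim signals such as Cbr3 in WT 3 are imprecise. Of the 34 members, 14 kept their direction in all 17 alternatives, among them Nqo1, Gss, Gclc, Srxn1, Cat and Sod1. Several of the 17 could not turn a sign. The other filters, the fits without a trend or with robust variances, and the replicate block left each member's difference unchanged. Leaving out shared probe sets changed only that of Srxn1. The cause of the changes below was not tested.

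Over all genes, the number at an adjusted p under 0.05 (0 in limma as reported, with 1129 at an unadjusted p under 0.05) was 3 without a filter, 3 without shared probe sets, 1 with the replicate block (Me1), 568 with array weights (whose estimation stopped before it converged), and 0 to 302 when 1 array was left out, with 302 lacking ChLO 3. No member was among the 568. The members higher at an unadjusted p under 0.05 (2) numbered 1 with quantile normalization, equal medians or the 60th percentile filter, 0 without a trend, 8 with array weights, 6 with spike-in scaling and 0 to 9 when 1 array was left out. Those lower (0) numbered 6 with array weights and 0 to 4. In the same fits 24.9% of all genes had an unadjusted p under 0.05 in either direction with array weights, 16% with spike-in scaling and 20.4% without ChLO 3, against 8.96% as reported, so the counts were larger over all genes too. With the mean of all probe sets the 2 were Nqo1 and Txn1, and Gss was not among them. The members whose groups did not overlap were 2 higher with the mean of all probe sets or spike-in scaling, and 1 to 11 when 1 array was left out, against 1. Those lower, 3, became 1 with quantile normalization, equal medians or the mean of all probe sets, 0 with spike-in scaling, and 3 to 8. The median of the members, 0.06, became 0.31 with spike-in scaling and lay between -0.0562 and 0.21 when 1 array was left out.

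With the replicate number as a block, 6 members were higher and 1 lower at an unadjusted p under 0.05, none of them passing over all genes, and 10.6% of all genes had such a p. The numbers are not known to pair the mice, and not every array correlated best with its own number.

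Signs turned for members with small differences. With spike-in scaling they became positive for Keap1 (0.19), Mafg (0.12), Gclm (0.0815), Txnrd2 (0.0754), Txn2 (0.0825), Ephx1 (0.22), Cbr1 (0.11), Aox1 (0.17), Gpx1 (0.0853), Sod2 (0.0201), Prdx2 (0.24) and Msra (0.16). With quantile normalization this held for Ephx1 (0.0899), Gpx1 (0.0198) and Prdx2 (0.0932), and Sod3 read -0.0024. Equal medians gave Prdx2 0.0056, and the mean of all probe sets gave Prdx2 0.58 and Prdx4 0.0058. Array weights gave Keap1 0.0019, Ephx1 0.16, Prdx2 0.11, Osgin1 -0.24, Sod3 -0.0723 and Prdx3 -0.0106. Leaving out 1 array gave ranges across 0 for Nfe2l2 (-0.15 to 0.39), Gclm (-0.40 to 0.0287), Gsr (-0.23 to 0.50), Txn1 (-0.0404 to 0.22), Ephx1 (-0.27 to 0.26), Cbr1 (-0.32 to 0.20), Osgin1 (-0.32 to 0.48), Aox1 (-0.26 to 0.0927), Sod3 (-0.16 to 0.33), Prdx2 (-0.0884 to 0.0882), Prdx3 (-0.0702 to 0.15), Glrx (-0.0735 to 0.27) and Msra (-0.28 to 0.0717).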

Other observations

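Glutathione transferases of the mu class varied between livers of the same genotype more than between genotypes. Gstm3 read 14.80, 12.63 and 12.27 in ChLO 1, 2 and 3, against 14.42, 12.06 and 11.15 in WT 1, 2 and 3. Gstm1 read 15.23, 14.04 and 14.10 in ChLO, against 15.54, 13.87 and 13.68 in WT, and Gstm2 read 12.64, 10.62 and 10.82 in ChLO, against 12.84, 11.19 and 10.29 in WT. In each of these genes 1 liver of either group, ChLO 1 and WT 1, stood above the rest. The genes were named after their values were seen, and since mu class transcripts are similar in sequence, the values of each gene are uncertain.

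Pgd, an NADPH-producing enzyme of the pentose phosphate pathway, also spread widely within both groups, with 13.54, 11.60 and 9.87 in ChLO 1, 2 and 3, against 12.69, 12.27 and 10.66 in WT 1, 2 and 3. Its difference was -0.20 (SE 0.89), and it was also named after its values were seen. The heavy subunit of ferritin, Fth1, read 15.27 to 15.51 in ChLO, against 15.50 to 15.78 in WT, and differed by -0.19 (SE 0.18).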
